A study of Mus musculus with 2 samples.

Results

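The genes described here are 9 lysosomal cathepsins, Ctsa, Ctsb, Ctsc, Ctsd, Ctsh, Ctsk, Ctsl, Ctss and Ctsz, together with Cstb, which encodes the inhibitor cystatin B. Their members on the array were the probe sets whose sole gene symbol in the platform annotation was one of these names. All 10 genes were found, out of 18193 genes named this way, and they held 22 of the 45037 probe sets. The study profiled femoral bone marrow cells of C57BL/6 mice on Affymetrix arrays, with no genetic modification named in the labels. In the first group, 2000000 marrow cells in the lower chamber of a transwell plate had shared medium with 50000 ID8 cells, a mouse ovarian tumour line that the labels also spell 1D8, in the upper chamber for 4 days. The labels call the product supernatant-induced MDSC, that is, myeloid-derived suppressor cells, an immature population able to restrain T cells. The second group was control marrow cells, for which the labels give the same CD11b+Gr1+ phenotype, the same medium with 5% serum and no tumour cells; the length of their culture is not stated. Animal age, sex and pooling were not given in the sources used here. Each group was 1 array, so no value has a replicate error and no difference was tested.

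Cathepsins are the main proteases of the lysosome. They are made as inactive proenzymes, are carried to the lysosome largely through mannose 6-phosphate tags, and become active when their propeptide is removed in the acidic lumen. Most belong to the papain-like cysteine proteases, which cystatins block when they leak into the cytosol or are secreted; cathepsin A is a serine carboxypeptidase and cathepsin D an aspartic protease. In myeloid cells these enzymes degrade ingested material, prepare antigen, and in part activate the serine proteases of neutrophil granules.

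Read on their brightest probe sets, the cathepsins and cystatin B were bright in the ID8-induced array, with cathepsin K the exception. The signal is the MAS5 intensity on a linear scale, and percentiles give how much of the array's probe sets had a lower signal. Of the 10 genes, 9 had a brightest probe set at or above the 90th percentile (signal 620), where 14.8% of all named genes lay. With the geometric mean over probe sets 6 of 10 genes reached this percentile, against 8.61% of all genes, and on the dimmest probe set 5 of 10 (Ctsd, Ctsh, Ctss, Ctsz and Cstb), against 6.46%. Ctsb, Ctsd, Ctsz and Cstb, 4 of the 10, were at or above the 99th percentile (signal 4651), where 1.39% of all genes lay. That count also rests on the brightest probe sets. On the dimmest, Cstb stood at percentile 98.8, Ctsz at 98.6 and Ctsb at 70.8, while Ctsd has 1 probe set. The geometric mean of Ctsb stood at percentile 95.8. The median percentile of the 10 genes was 98.5, beside 61.4 for all genes. All 10 were above the signal floor of 68.77, the 40th percentile of the array, which 71.3% of genes passed, so that count by itself says little. With every probe set of a gene required to pass, 9 of 10 did, against 49.7% of all genes, and with the geometric mean over probe sets 10 of 10, against 62.4%. With the floor at the 20th percentile 10 of 10 passed, against 87.5%, and with the floor at the 60th percentile 9 of 10, against 51.6%. By single probe sets, 21 of 22 passed the floor, against 63.5% of all probe sets named for 1 gene. The genes were chosen with results of these data known, and a signal also depends on how efficiently its probes hybridise, so these figures place the genes on the array and do not rank their transcripts.

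**Figure D1:**
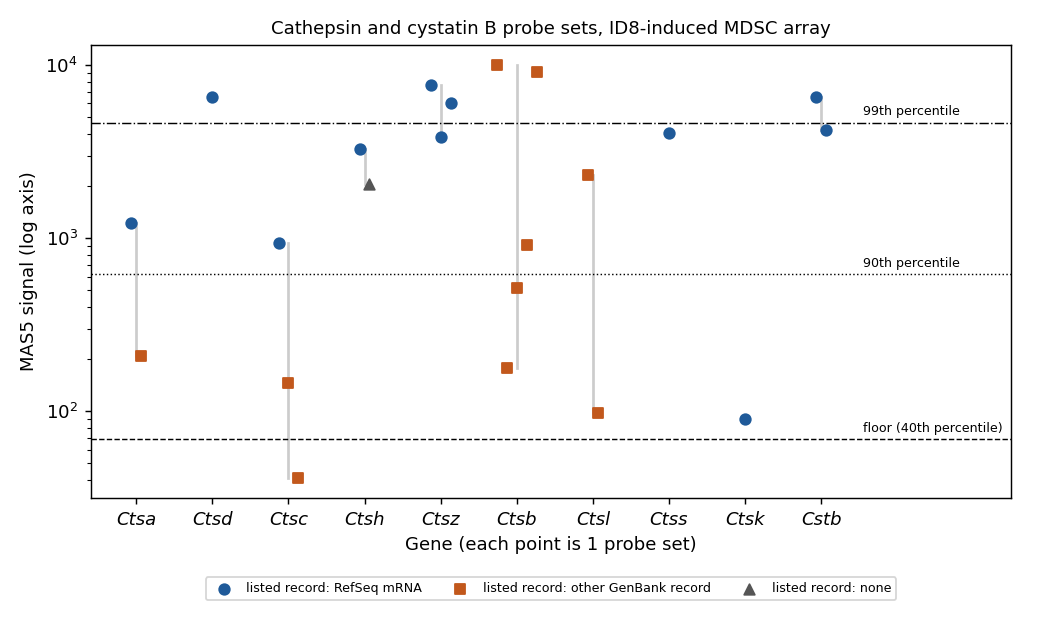
MAS5 signal (log axis) of each of the 22 probe sets in the ID8-induced array, grouped by gene and marked by the kind of sequence record the annotation lists for the probe set; grey lines join probe sets of a gene, and dashed, dotted and dash-dotted lines mark the floor and the 90th and 99th percentiles. The 3 probe sets of Ctsz lie close together, those of Ctsb spread from 177.22 to 9966.1, and the single probe set of Ctsk lies at 90.79, near the floor.

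The 2 cathepsins that are not cysteine proteases both gave signals in the upper part of the array. Ctsd, whose aspartic protease is an abundant general lysosomal endopeptidase, read 6528.67 on its only probe set, at percentile 99.5. Ctsa, which encodes the carboxypeptidase that also shields neuraminidase and beta-galactosidase from degradation, read 1227.11 on the probe set listed for a RefSeq mRNA and 208.47 on that listed for another GenBank record. Both Ctsa readings were above the floor, and they stood at percentiles 94.8 and 74.6. The genes of its partner enzymes were also above the floor on their brightest probe sets, Neu1 at 1140 (53.91 on its dimmest, below the floor) and Glb1 at 120.

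Lysosomal genes are known targets of TFEB and its relatives, which bind E-boxes, and the E-box was therefore sought in the promoters. RefSeq promoter sequences (GRCm38.p6, 250 bases before to 50 after each start) were found for 7 of the 10 genes, Ctsa with 2 starts, giving 8 promoters. Ctsb, Ctsh and Cstb had no promoter in the set used, so theirs were not searched. The 6 letters CACGTG, which read the same on both strands, occurred in 3 of the 8 promoters, those of Ctsa, Ctsd and Ctsl, and in 7.15% of all 32851 promoters of this length. The longer GTCACGTG, searched on both strands and containing the first motif, occurred in 2 of the 8 (Ctsa and Ctsd) and in 2.25% of all. Among 102 promoters of the genes in the lists described below, 22.5% held CACGTG and 17.6% held GTCACGTG. The E-boxes before the starts are shown with their surroundings, CACGTG in capitals and each written 5′ to 3′ on the strand of the gene, because they show how the flanks differ between these promoters.
Ctsa, chr2:164833743-164833772, plus strand: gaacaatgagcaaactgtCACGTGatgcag
Ctsd distal, chr7:142388048-142388077, minus strand: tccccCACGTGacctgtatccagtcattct
Ctsd proximal, chr7:142387908-142387937, minus strand: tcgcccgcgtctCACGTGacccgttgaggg
Ctsl, chr13:64370739-64370768, minus strand: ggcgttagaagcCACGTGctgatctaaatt
Another E-box of Ctsa, after the start, is not shown. The Ctsa E-box shown ended 6 bases before its start, the Ctsd E-boxes 239 and 92 bases before theirs, and the Ctsl E-box 230 bases before its start. The Ctsa and Ctsl windows lie within the annotated genes, since the starts used there are internal to the longest gene span, and the Ctsd windows lie outside the gene. The match is a description of the sequence and does not show binding. Of the factors themselves, Mitf read 637 on its brightest probe set and 132 on its dimmest, Tfe3 500 and Tfeb 416, and Tfec 86.63; all 4 were above the floor, and Tfec was near it.

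Among the cysteine cathepsins that trim peptides from their ends, Ctsh and Ctsz were bright on every probe set while Ctsc was not. Ctsh, an aminopeptidase, read 3259.16 and 2047.29, at percentiles 98.2 and 97. Ctsz, a carboxypeptidase also known as cathepsin X, read 7687.49, 5995.01 and 3855.52, and all 3 readings were at or above percentile 98.6. Both genes were therefore bright whichever probe set was read. The 3 probe sets of Ctsz, however, share a listed record, and all 3 carry a suffix letter in their names. The dimmer Ctsh probe set also carries such a letter and has no listed record. Ctsc, the dipeptidyl peptidase that activates neutrophil elastase, cathepsin G and proteinase 3, read 943.57 on the probe set listed for a RefSeq mRNA, and 146.11 and 41.44 on the other two. The 41.44 was the only one of the 22 probe sets below the floor, at percentile 22. Ctsg, the gene of one of the proteases that cathepsin C activates, read 413 on its single probe set.

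The endopeptidase genes Ctsb and Ctsl each had bright and dim probe sets. Ctsb, whose product cuts both within proteins and, as a dipeptidyl carboxypeptidase, at their ends, had 5 probe sets. Probe set 1417490_at read 9966.1 and 1448732_at 9109.97, both at percentile 99.8, while 1444987_at read 916.97, 1417492_at 513.17 and 1417491_at 177.22. Thus 2 of the 5 were among the brightest on the array and the others stood between percentiles 70.8 and 93.1. Ctsl, a general endopeptidase that also cuts the invariant chain of MHC class II, read 2310.17 on 1 probe set and 97.67 on the other, the latter at percentile 53. Which of the readings better follows the amount of Ctsb or Ctsl transcript cannot be told from the array.

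Ctss and Ctsk are neighbours in the genome, with no protein-coding gene between them in the RefSeq table, and gave a high signal and a signal near the middle of the array, respectively. Ctss, whose enzyme stays active at neutral pH and completes the removal of the invariant chain in antigen-presenting cells, read 4055.54 at percentile 98.7. Ctsk, the collagen-degrading cathepsin of osteoclasts, read 90.79 at percentile 50.5, just above the array median of 89.52. Each has 1 probe set, so there is no second reading to set beside it. A floor at the 60th percentile (119.96) would leave Ctsk out. Of 9 osteoclast markers, 6 were above the floor, near the 71.3% of all genes, so the count does not set them apart. Acp5 (tartrate-resistant acid phosphatase) read 741, Nfatc1 408 and Oscar 228, while Calcr (the calcitonin receptor) read 11.1 and the fusion genes Ocstamp and Dcstamp 44.62 and 57.45. Fibroblasts can also express Ctsk, and 2 of 7 fibroblast markers were above the floor that 71.3% of all genes passed, Col1a1 at 270 (34.71 on its dimmest) and Col1a2 at 95.98 (27.56 on its dimmest). The part of either cell type in the Ctsk signal was not tested.

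Cstb, the cytosolic inhibitor of the papain-like cathepsins, was bright on both of its probe sets, at 6550.6 and 4231.05, percentiles 99.5 and 98.8. Most other cystatins were dim. Of 14 measured cystatin family genes, 5 were above the floor, against 71.3% of all genes. The 90th percentile was reached by 2 of the 14, near the 14.8% of all genes, so that count does not set them apart. Cst3, the secreted general inhibitor cystatin C, read 1564, the stefin gene Stfa2l1 918, Cst7 (cystatin F, which acts on cathepsins inside immune cell granules) 379 and Cst13 151. The dimmest of the 9 below the floor were Cst9 at 11.88, Csta1 at 14.92 and Cst6 at 22.38. The names Cst8, Stfa1, Stfa2, BC100530, BC117090 and Kng2 were not analysed here, because no probe set carried them alone.

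Probe sets of the same gene offered the sole check within the array, and they agreed for some cathepsins and not for others. Of the 7 genes with several probe sets, Cstb, Ctsh and Ctsz had a brightest signal under 2 times the dimmest, and Ctsa, Ctsb, Ctsc and Ctsl over 5 times. Over all 9010 genes with several, 31.4% were under 2 times and 31.5% over 5 times, and the median ratio was 3.01. For Ctsl the ratio was 23.7, higher than in 98% of the 4695 genes with 2 probe sets, and for Ctsc 22.8, higher than in 94.9% of the 2366 genes with 3. In Ctsb it was 56.2, higher than in 94.2% of the 463 genes with 5. The other ratios were 5.89 for Ctsa, 1.99 for Ctsz, 1.59 for Ctsh and 1.55 for Cstb.

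Disagreement in Ctsb was present within a single listed record. Of its 5 probe sets, 4 carried the same GenBank mRNA record, and these held both its brightest and its dimmest signal. Among the 73 records with 4 probe sets for 1 gene, the median ratio was 3.33, and Ctsb had the highest. The 3 probe sets of Ctsz and both of Cstb also shared a record, with ratios lower than the medians for records of that size (3.01 and 1.86). Ctsa, Ctsc and Ctsh had probe sets both with and without a RefSeq mRNA as their record, and in 3 of 3 the RefSeq probe set was brighter; over all 2174 such genes this held for 55.2%.

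**Figure D2:**
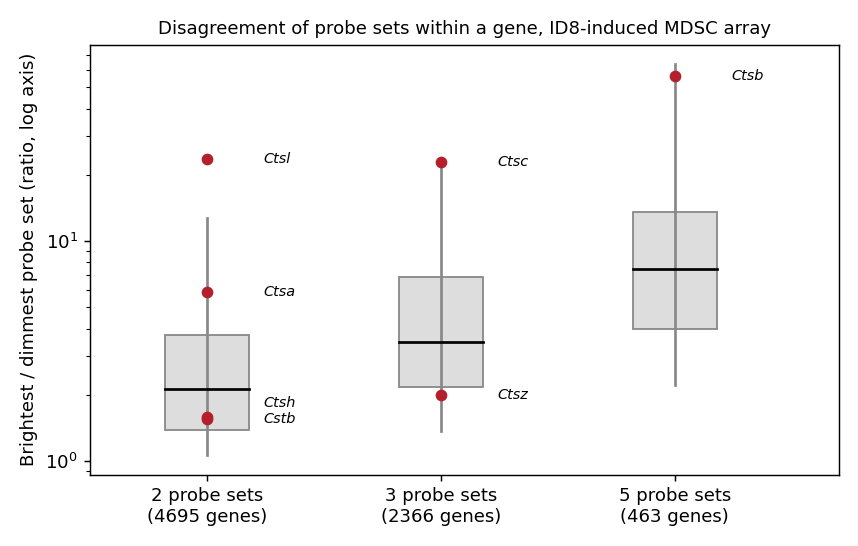
Ratio of the brightest to the dimmest probe set of a gene (log axis) in the ID8-induced array, for genes with 2, 3 or 5 probe sets; boxes span the quartiles of all such genes, the line in each box is the median, grey lines cover the central 90% and red points are the cathepsins and cystatin B. Ctsl at 23.7 lies above the grey line, Ctsc at 22.8 and Ctsb at 56.2 near its end, and Ctsz at 1.99, Ctsh at 1.59 and Cstb at 1.55 lie below the medians.

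The position of a gene on the array also depends on how many probe sets it has, since the brightest of several is read. Against genes with the same number of probe sets, the median percentile of the 10 genes was 98.1, in place of 98.5 against all probe sets. The reference thus changes from probe sets to genes as well. Ctsk, with 1 probe set, moved from 50.5 to 53.3, so the shifts do not reflect the number of probe sets alone. Ctsc moved most, from 93.3 to 85.9, and Ctsa from 94.8 to 92. Ctsb, Ctsd, Ctsz and Cstb stayed at or above 99 on this scale, which also reads the brightest probe set.

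None of the remaining cathepsins reached the 90th percentile, where 14.8% of all genes lay. Of 8 placental cathepsins, a rodent cluster known from the trophoblast, 1 was above the floor, which 71.3% of all genes passed. Their brightest probe sets read from 8.39 (Ctsj) to 87.01 (Cts8, 13.45 on its other probe set), with Ctsr at 63.37, Cts3 at 30.53, Cts7 at 20.75, Ctsm at 19.23 and Ctsq at 12.33. Of the 5 other cathepsins, 4 passed the floor, near the share of all genes, so the count does not set them apart. Ctsg read 413, Ctse 363 (119 on its dimmest), Ctso 109 and Ctsw, a marker of cytotoxic lymphocytes, 70.04. Ctsf lay below the floor at 67.53. Ctsw and Ctsf were both close to the floor of 68.77, so it does not set them apart.

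Genes that deliver cathepsins and supply their acidic surroundings were mostly above the floor on their brightest probe sets, as were 71.3% of all genes. Sorting and retromer genes passed in 11 of 12 cases. With every probe set required to pass it was 9 of 12, against 49.7% of all genes. The cation-dependent mannose 6-phosphate receptor gene M6pr read 3449, the retromer genes Vps35, Vps26a and Vps29 read 2492, 1615 and 1184 (62.28 on the dimmest Vps29 probe set), and Gnptg, a subunit of the enzyme that builds the tag, lay below the floor at 56.96. All 16 measured proton pump genes passed, and 11 of 16 did with every probe set required. The 90th percentile, where 14.8% of all genes lay, was reached by 14 of them. The highest were Atp6v1e1 at 6310 (55.74 on its dimmest), Atp6v1g1 at 3587 (63.33), Atp6v1a at 3547 and Atp6v0d1 at 3285. Atp6v0d2, the subunit form known from osteoclasts, read 107 and 48.49 on its 2 probe sets.

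Other contents of the lysosome passed the floor as well. All 14 measured membrane and lipid transfer genes did, and 9 reached the 90th percentile, with Lamp1 at 7260, Psap (the precursor of the saposins) at 6897, Npc2 at 6167 (134 on its dimmest), Laptm4a at 4034 and Cd68 at 3597. The other lysosomal peptidases passed in 8 of 8 cases, with Tpp1 at 1581 (120 on its dimmest), Napsa at 1393 (175), Ppt1 at 666 (59.65) and Scpep1 at 495. Lgmn, the legumain that processes several procathepsins, read 301. Glycosidases, lipases and sulfatases passed in 21 of 22 cases and reached the 90th percentile in 6, with Asah1 at 2025, Gla at 1867 (13.39 on its dimmest), Hexa at 1517 and Neu1 at 1140, and Manba below the floor at 39.19. With every probe set required, 49.7% of all genes passed. For the membrane, peptidase and glycosidase lists it was 13 of 14, 6 of 8 and 15 of 22. All the related lists together, the dim placental cathepsins and other cystatins included, held 103 measured genes. On brightest probe sets 84 of these passed the floor and 40 reached the 90th percentile, where 71.3% and 14.8% of all genes lay.

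**Figure D3:**
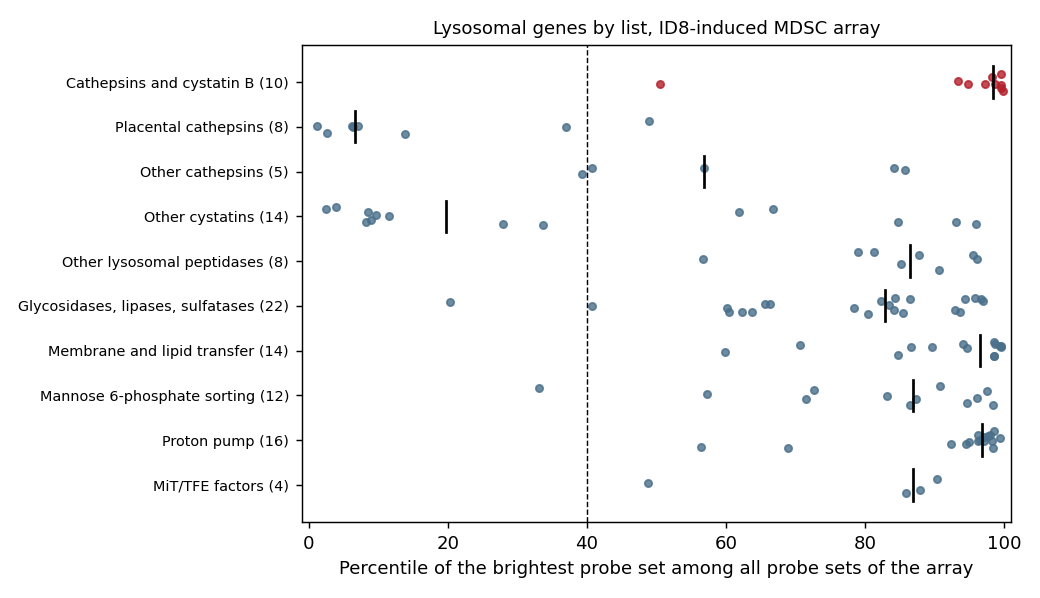
Percentile of each gene's brightest probe set among all probe sets of the ID8-induced array, by list, with the number of measured genes in brackets; each point is a gene (spread vertically at random), black bars are list medians and the dashed line is the floor at the 40th percentile. The cathepsins and cystatin B have a median of 98.5, proton pump genes 96.8, and membrane and lipid transfer genes 96.6, while placental cathepsins have 6.7 and other cystatins 19.7.

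The labelled phenotype was checked on marker genes. All 7 measured genes of the CD11b+Gr1+ myeloid list were at or above the 90th percentile, where 14.8% of all genes lay. They ran from Itgam (CD11b) at 2375 to S100a9 at 24857. Ly6g, Ly6c1 and Ly6c2 were not analysed here, because no probe set carried those names alone. The Gr1 part of the label was therefore not checked on its own genes. Macrophages are rich in cathepsins, and 4 of 11 macrophage markers were above the floor: Csf1r at 4403, Adgre1 at 1443, C1qb at 365 (18.71 on its dimmest) and Siglec1 at 105 (64.64). With every probe set required to pass, 2 of 11 did, against 49.7% of all genes. C1qa, C1qc, Mrc1 and Cd163 were below the floor, at 35.04, 35.13, 35.06 and 17.09. Lymphocyte markers did not reach the 90th percentile, with 5 of 7 T and NK cell and 5 of 5 B cell markers above the floor and highest readings of 197 (Cd8a, 21.19 on its dimmest) and 261 (Cd79b). Epithelial and mesothelial markers, which tumour cells could bring, were above the floor in 6 of 9 cases, the highest being Epcam at 159 (58.32 on its dimmest). These counts on brightest probe sets stand beside the 71.3% of all genes above the floor. Those of T and NK cell and of epithelial and mesothelial markers are near it. With every probe set required, 4 of 7 T and NK cell, 3 of 5 B cell and 3 of 9 epithelial and mesothelial markers passed. The part of these cells in the cathepsin signals was not tested, and in bulk RNA fewer cells of a type and less RNA per cell cannot be told apart.

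The control array could not be set beside these values. Down the rows of the value table, its signals formed 2 interleaved descending series. Over the whole column 3103 of 45036 steps from row to row (6.89%) went up; in the ID8-induced array 22454 (49.9%) did. Within the 22626 control values at or above the last value of 91.67, and within the 22411 below it, there were 0 rises. The cathepsin rows show what this means for single genes. At the 3 Ctsb probe sets with consecutive IDs, the control column listed 1511.72, 1511.65 and 1510.93, a spread of 0.052%, where the ID8-induced signals were 9966.1, 177.22 and 513.17. At the 3 consecutive probe sets of Ctsz it listed values from 1297.18 down to 1296.77, and at the 2 of Cstb 420.65 and 420.63. These listed values followed the row and not the gene, so no fold change is given for any cathepsin, and nothing above shows that tumour cells raised or lowered one.

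**Figure D4:**
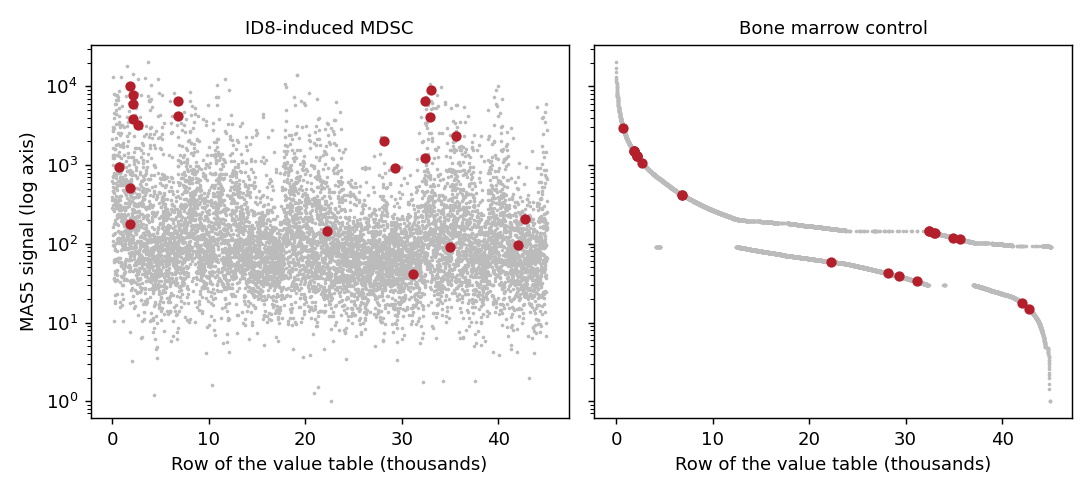
MAS5 signal (log axis) against the row of the value table for the ID8-induced array (left) and the bone marrow control (right); grey points are a sample of all probe sets at regular steps, with values under 1 drawn at 1, and red points are the 22 probe sets of the cathepsins and cystatin B. On the left the red points scatter from 41.44 to 9966.1 with no order, and on the right they lie on the 2 descending curves that all control values form.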

How the data were processed

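The authors deposited 1 intensity for each probe set, a linear signal computed with MAS5, per the submitters' processing notes. The MAS5 version and scaling target are not given in these sources, and no detection calls were used. Per the labels' protocols, labelled cRNA came from 6 ug of RNA. No further scaling was applied. Gene names came from the platform annotation, and the 34945 probe sets with a single symbol were used (932 had several, 9160 no symbol). A gene was read on its brightest probe set; geometric means and dimmest probe sets were alternatives. The floor was the array's 40th percentile. With 1 array a group, no test was made, and the number of arrays limits the precision. The genes and lists were chosen with earlier results of these data known. Named were every member, 8 genes set by name, and of each related list up to 4 of the highest signals and up to 3 below the floor; a few others were named after their values were seen. Row order was checked by counting rises, and the calculations were tested on simulated data. Promoters came from RefSeq (GRCm38.p6). Python 3.11.15, numpy 2.4.6 and pandas 2.3.3 were used.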

Additional observations from a re-analysis of the deposited data

Results flagged for a closer look

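The control column was not used for any gene, yet it held signal beside the cathepsin probe sets, up to 2998.34 in the row of a Ctsc probe set that read 943.57 in the ID8-induced array. It is listed as a signal in data that the description above leaves aside. Since the control values form 2 interleaved descending series along the rows, the 2998.34 cannot be assigned to Ctsc.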

How the results depend on the processing

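With 10 of 10 genes above the floor as described, 10 passed with the floor at the 20th percentile and with geometric means, and 9 with the floor at the 60th (without Ctsk) and on the dimmest probe set (without Ctsc). Without probe sets that carry a suffix letter, 13 of 14 probe sets, in place of 21 of 22, and 8 of 8 genes were above the floor. This setting leaves fewer probe sets, and none for Ctsd and Ctsz. With RefSeq mRNA records only, chosen after seeing the data, 8 of 8 genes were above the floor, and Ctsb and Ctsl had no such probe set. The share of all genes or probe sets passing was not computed under either restriction, so these counts do not set the members apart. The median percentile was 96.7 with the geometric mean. The count at or above the 90th percentile, 9 of 10, was 6 with the geometric mean and 5 on the dimmest probe set, both chosen after seeing the data. Signals moved by over 1.5 times on the dimmest probe set for all 7 genes with several probe sets. With the geometric mean they moved for 4 of these 7 (Ctsa to 505.78, Ctsb to 1499.11, Ctsc to 178.77, Ctsl to 475.01). Ctsd, Ctss and Ctsk have 1 probe set each, so neither setting could move them. Without suffix letters signals moved for 2 of 8 genes (Ctsl to 97.67, Cstb to 4231.05). Placental cathepsins above the floor numbered 2 at the 20th percentile, 0 at the 60th and 0 with the geometric mean, and other cathepsins 2 at the 60th; the other list counts moved by less. No paired analysis was possible because each group has 1 array. Without detection calls, signals near the floor, Ctsk among them, cannot be called present or absent.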
